A study of Mus musculus with 6 samples.

Results

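The Id proteins and E proteins examined here were the Id genes Id2 and Id3 and the E protein genes Tcf3, Tcf12 and Tcf4, 5 genes of 22180, measured in mouse invariant natural killer T (iNKT) cells, T cells with a nearly fixed receptor that recognises lipids. They were chosen by name for their place in iNKT subset choice, and each was measured by 1 array row that carried no other gene symbol. The PLZF_ON group held 3 arrays of iNKT cells from mice that express PLZF in a constantly acetylated form, and the wild-type (WT) control group held 3 arrays of iNKT cells from mice labelled control. PLZF, encoded by Zbtb16, is the transcription factor on which iNKT cells depend. The study names replicates 1 and 2 of each group as the arrays it analysed, so the comparison was made over those 4 arrays and again over all 6. The sources used here do not give the organ, age, sex or strain, how the PLZF allele is expressed, or whether an array stands for 1 animal or a pool. The p-values therefore cover only the variation among these arrays, and that may be technical.

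E proteins are basic helix-loop-helix transcription factors that pair with each other and bind E boxes, short DNA motifs of the form CANNTG. Id proteins have the helix-loop-helix but not the basic region, so they pair with E proteins and keep them from DNA. In mice, HEB (from Tcf12) and E2A (from Tcf3) act in the development of iNKT cells, Id2 sustains the interferon-gamma-producing NKT1 cells, and Id3 is induced by antigen receptor signals through Egr factors.

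PLZF_ON replicate 3 stood apart from the other 5 arrays. It correlated with them at 0.895 to 0.898 across rows, while the others correlated with each other at 0.957 to 0.973, and its values had a narrower spread (SD 1.79, against 1.97 to 2.01). It also carried transcripts of immature thymocytes. A background level of 5.20 on the log2 scale was used to read low values, the 95th percentile of the 6-array means of 1405 olfactory and vomeronasal receptor rows, since iNKT cells are not known to use these genes. Cd24a was at 9.58 on that array and between 4.41 and 5.27 on the other 5, and Dntt, the terminal transferase of receptor rearrangement, was at 7.19, against 3.46 to 4.10. The summed level of the 5 measured immature thymocyte markers of 6 listed, as log2 of the sum of linear values, was 7.14, 7.28 and 10.27 in PLZF_ON replicates 1 to 3 and 7.11 to 7.28 in WT. By limma 0 of the 5 passed over 4 or over 6 arrays, and Rag2 stayed below the background level on all 6. The summed level of the 7 myeloid markers was 7.87, 7.95 and 8.25 in PLZF_ON replicates 1 to 3 and 7.91 to 7.98 in WT. Of these, the lysozyme Lyz2 was at 6.58 on PLZF_ON replicate 3 and between 3.96 and 4.48 on the others, Cd68 was lower there (5.32, against 6.45 to 6.95), Itgam was at 5.24, within the range of the others (4.83 to 5.61), and 3 of the 7 were below background throughout. All 6 measured T cell markers lay above the background level on every array, while 5 of 6 measured B cell markers lay below it throughout. The other, Pax5, exceeded it only on PLZF_ON replicate 3 (5.40) and WT replicate 3 (5.23). Both values were below the same percentile taken within the array, 5.65 and 5.25. The summed level of the T cell markers was 13.31, 13.26 and 12.54 in PLZF_ON replicates 1 to 3 and 13.06 to 13.22 in WT. For the 6 hepatocyte or epithelial markers it was 7.50, 7.56 and 8.29 in PLZF_ON replicates 1 to 3 and 7.49 to 7.56 in WT. Low values were higher on PLZF_ON replicate 3 in general. Its lower quartile over all rows was 3.91, against 3.64 to 3.72 on the other 5 arrays. Whether the myeloid and the hepatocyte or epithelial sums of that array go beyond this was not tested.

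The promoters of Id2 and Id3 are shown because these were the members whose PLZF_ON and WT arrays did not overlap over all 6 arrays. Each is the 250 bases before the annotated start in RefSeq (GRCm38.p6), with E boxes (CANNTG, the same on both strands) in capitals. Id2 lies at chr12:25096093-25096342 on the minus strand and Id3 at chr4:136143572-136143821 on the plus strand.
Id2: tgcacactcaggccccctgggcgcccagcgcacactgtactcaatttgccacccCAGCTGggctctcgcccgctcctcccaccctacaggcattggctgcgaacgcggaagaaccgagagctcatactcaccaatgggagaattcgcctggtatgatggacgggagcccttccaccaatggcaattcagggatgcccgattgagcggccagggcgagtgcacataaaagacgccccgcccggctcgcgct
Id3: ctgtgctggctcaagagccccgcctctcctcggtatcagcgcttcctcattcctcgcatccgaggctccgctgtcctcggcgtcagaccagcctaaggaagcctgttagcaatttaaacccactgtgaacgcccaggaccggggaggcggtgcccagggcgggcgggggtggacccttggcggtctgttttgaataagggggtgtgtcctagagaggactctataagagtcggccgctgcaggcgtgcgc

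The Id2 window held 1 E box, CAGCTG, 196 to 191 bases before the start, and the Id3 window held 0. At least 1 CANNTG was present in 66.2% of 32851 mouse promoter windows of the same length, and CAGCTG, which is one of its forms, in 13.0%. The motif GCGNGGGCG, a form bound by Egr factors, was searched on both strands and had 0 matches in either window, against 4.7% of all windows. The CCAAT box, also searched on both strands, had 3 matches in Id2 and 0 in Id3, and occurred in 33.8% of windows. Both windows had a GC content of 62.8%. The Tcf3 window held 1 E box, and of the 3 annotated windows of Tcf12, 2 held 1 E box each. These matches describe letters only.

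Over the 4 arrays, 0 of the 5 members passed an adjusted p of 0.05 (limma with Benjamini-Hochberg adjustment over 23521 rows), where 40 rows did (0.17%). Only Id3 had an unadjusted p under 0.05, as did 9.41% of all rows. Over 6 arrays 0 of 5 passed, where 22 rows did (0.0935%), and again Id3 alone was under an unadjusted 0.05, as were 5.77% of rows. In PLZF_ON, Id3 was higher and Id2 lower than in WT on every array, and the log2 differences of the 3 E protein genes lay between -0.24 and 0.06 over 6 arrays. Non-overlapping groups over 6 arrays were seen for 2 of the 5 members and for 11.8% of all rows (5.55% with PLZF_ON above WT, as Id3, and 6.22% with PLZF_ON below, as Id2). Over 4 arrays they were seen for 3 of 5 members (Id3 above, Id2 and Tcf4 below) and for 38.2% of all rows (18.9% above and 19.3% below). The median log2 difference of the 5 was -0.15 over 4 arrays and -0.20 over 6, beside 0.00 and 0.03 over all tested rows, and 4 of 5 members, then 3 of 5, were on the lower side. All levels are deposited log2 values from robust multi-array averaging (RMA), and a log2 difference of 1 is a doubling.

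**Figure D1:**
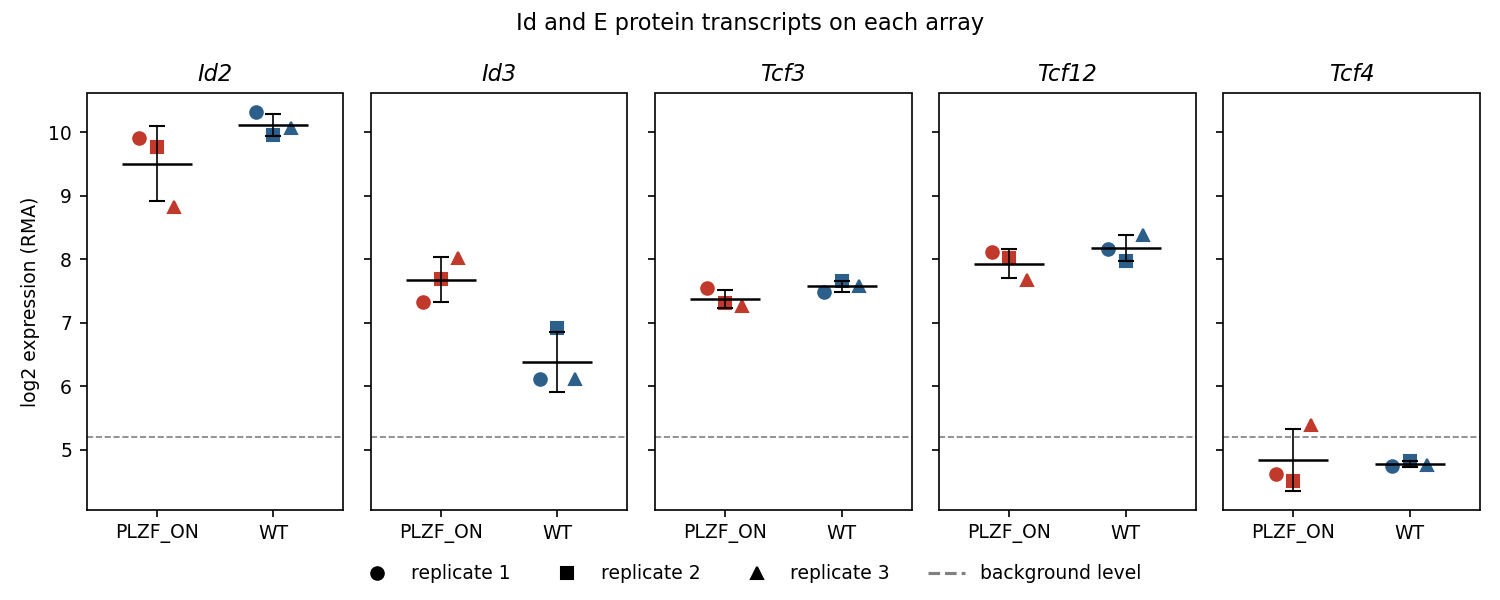
Log2 expression of the 5 genes on each array, PLZF_ON left and WT right, with marker shape for the replicate number, a horizontal line for the mean, error bars for the SD (n = 3) and a dashed line at the background level of 5.20. Id3 lies between 7.33 and 8.03 in PLZF_ON, above all WT arrays, and Tcf4 lies near or below the dashed line.

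Id3 encodes an inhibitor of E proteins that rises when the T cell receptor is engaged. Its log2 level was 7.33, 7.69 and 8.03 in PLZF_ON replicates 1, 2 and 3, against 6.11, 6.93 and 6.11 in WT replicates 1, 2 and 3. The lowest PLZF_ON array thus lay above the highest WT array, by less than the gap between WT replicates 1 and 2. The means were 7.68 ± 0.35 in PLZF_ON and 6.38 ± 0.47 in WT (SD, n = 3 each). Over 4 arrays the Id3 log2 difference was 0.99, 1.99-fold higher in PLZF_ON (SE 0.29, 95% interval 0.29 to 1.69, limma adjusted p = 0.336). Over 6 arrays it was 1.30, or 2.46-fold (SE 0.28, 95% interval 0.65 to 1.94, limma adjusted p = 0.286). The exact two-sided permutation test over the 6 arrays gave p = 0.1, the smallest that 3 arrays against 3 allow. Among the 23521 rows, 67 had a larger rise over 6 arrays and 202 over 4. The Id3 difference therefore did not pass the test over all rows, although both intervals lay above 0.

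The size of the Id3 difference moved with single arrays. WT replicate 2 was the WT array with the most Id3, and without it the difference was 1.40 over the remaining 3 of the 4 arrays (limma adjusted p = 0.0766). Without WT replicate 1 it was 0.58 (limma adjusted p = 0.634), and this was the lowest value under any array left out. PLZF_ON replicate 3, the array with immature thymocyte transcripts, had the highest Id3 level. Without it the difference over the other 5 arrays was 1.13 (SE 0.27, limma adjusted p = 0.188). The part of those transcripts in the Id3 level of replicate 3 was not tested. In bulk samples a change in the mix of cells and a change in RNA per cell cannot be told apart.

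**Figure D2:**
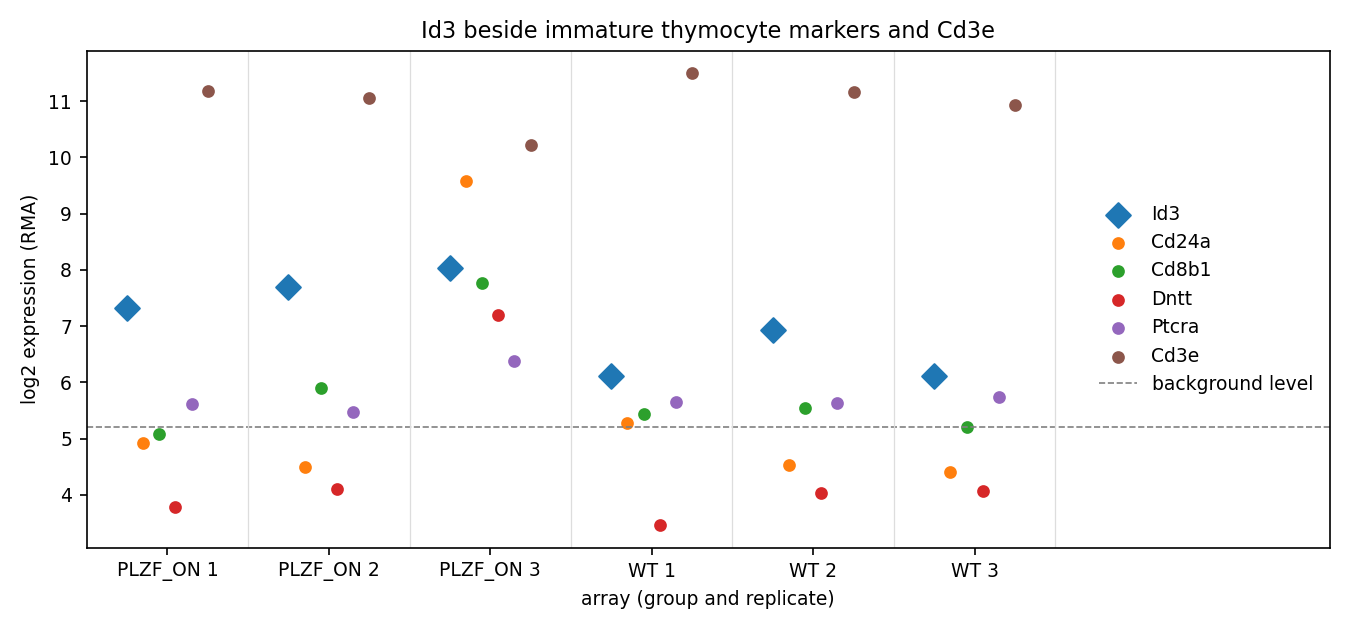
Log2 expression of Id3 (diamonds), of the immature thymocyte markers Cd24a, Cd8b1, Dntt and Ptcra, and of the T cell marker Cd3e on each array, PLZF_ON left and WT right, with the background level of 5.20 dashed. Cd24a reaches 9.58 and Dntt 7.19 only on PLZF_ON replicate 3, while Id3 is above its WT levels on all 3 PLZF_ON arrays.

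Id2 encodes the inhibitor that effector lymphocytes such as NKT1 and natural killer cells use against E proteins. Its log2 level was 9.92, 9.78 and 8.83 in PLZF_ON replicates 1, 2 and 3, against 10.32, 9.97 and 10.07 in WT replicates 1, 2 and 3. All PLZF_ON arrays lay below all WT arrays, replicates 1 and 2 narrowly and replicate 3 by more than 1. The means were 9.51 ± 0.59 in PLZF_ON and 10.12 ± 0.18 in WT (SD, n = 3 each). Over 4 arrays the difference was -0.30 (SE 0.17, 95% interval -0.70 to 0.11, limma adjusted p = 0.696). Over 6 arrays it was -0.61 (SE 0.29, 95% interval -1.28 to 0.06, limma adjusted p = 0.906), and the exact two-sided permutation p was again the smallest possible, 0.1. Without PLZF_ON replicate 3 the difference over the other 5 arrays was -0.27, so much of the size over 6 arrays came from this array. High values were lower there in general, with an upper quartile over all rows of 6.26, against 6.49 to 6.55 on the other 5 arrays. With quantile normalization the Id2 difference over 6 arrays was -0.51. Whether the Id2 value of replicate 3 goes beyond this general lowering was not tested. Natural killer cells also use Id2. Of the 6 natural killer cell markers listed, 5 were measured, and their summed level was 9.60, 7.84 and 9.60 in PLZF_ON replicates 1, 2 and 3, against 9.91 to 10.39 in WT. Ncr1, the NKp46 receptor of these cells, was at 7.65, 4.80 and 8.25 in PLZF_ON replicates 1, 2 and 3, against 5.80, 6.68 and 7.48 in WT replicates 1, 2 and 3, with overlapping groups. Klrb1c, which encodes NK1.1, was at 8.63, 7.25 and 7.78 in PLZF_ON replicates 1, 2 and 3, against 10.24, 10.02 and 9.30 in WT replicates 1, 2 and 3. Its PLZF_ON arrays lay below its WT arrays throughout, as for Id2. Klrb1c was the brightest of the 5 on each WT array, so the WT sums mostly follow this gene alone. Whether its transcripts came from the iNKT cells themselves or from natural killer cells was not tested. The sums therefore do not measure natural killer cell content. Eomes (4.22 to 6.33 in PLZF_ON, 4.60 to 5.85 in WT) and Klri2 (3.13 to 7.50 and 5.095 to 6.21) overlapped between the groups. Kit alone of the 5 was below the background level throughout, with its PLZF_ON arrays (4.43 to 4.66) above its WT arrays (3.95 to 4.37), and the part of natural killer cell transcripts in the Id2 levels was not tested. A drop in Id2 was not detected by limma in either comparison, and the interval over 4 arrays reached from a fall of 0.70 to a rise of 0.11.

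Each array can be read on its own as a distance from the WT mean of the gene. For Id3 the distances were 0.94, 1.31 and 1.64 in PLZF_ON replicates 1, 2 and 3, against -0.27, 0.54 and -0.27 in WT replicates 1, 2 and 3. For Id2 they were -0.20, -0.34 and -1.29 in PLZF_ON replicates 1, 2 and 3, against 0.20, -0.15 and -0.05 in WT replicates 1, 2 and 3. On all 3 PLZF_ON arrays Id3 was above and Id2 below its WT mean. WT replicate 2 shared this pattern in part, with Id3 above and Id2 below the WT mean.

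**Figure D3:**
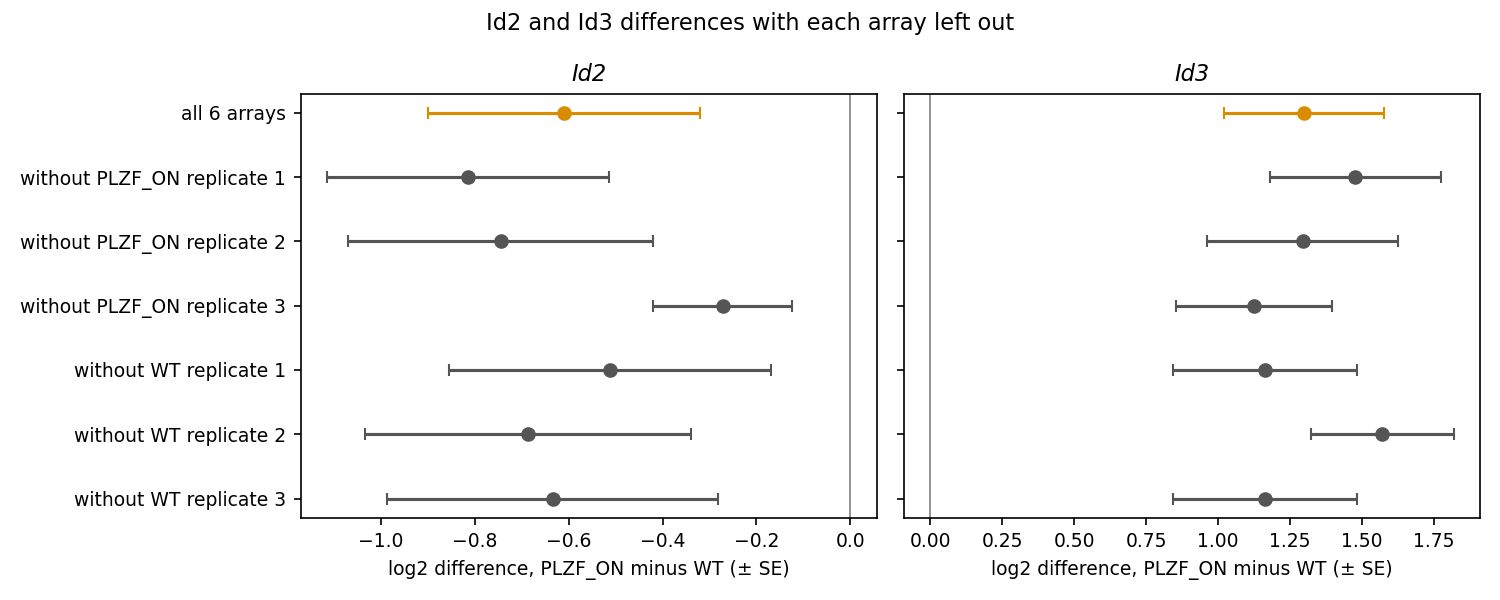
Log2 difference, PLZF_ON minus WT, of Id2 (left) and Id3 (right) over 6 arrays (orange, top) and with each array left out (grey), with limma standard errors. Id3 stays between 1.13 and 1.57 and Id2 between -0.81 and -0.27, the value nearest 0 being the one without PLZF_ON replicate 3.

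The log2 differences of the E protein genes were closer to 0 than those of Id2 and Id3 in both comparisons. Tcf3 encodes the E2A proteins E12 and E47. Its level was 7.54, 7.31 and 7.27 in PLZF_ON replicates 1, 2 and 3, against 7.49, 7.67 and 7.58 in WT replicates 1, 2 and 3. The groups overlapped, since PLZF_ON replicate 1 lay above WT replicate 1. The Tcf3 difference was -0.15 over 4 arrays (SE 0.15, 95% interval -0.52 to 0.22, limma adjusted p = 0.861) and -0.20 over 6 (SE 0.15, 95% interval -0.56 to 0.15, limma adjusted p = 0.941).

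Tcf12 encodes HEB, which partners E2A in developing T cells. Its level was 8.11, 8.02 and 7.67 in PLZF_ON replicates 1, 2 and 3, against 8.17, 7.98 and 8.38 in WT replicates 1, 2 and 3. PLZF_ON replicates 1 and 2 lay inside the WT range and replicate 3 below it. The Tcf12 difference was -0.01 over 4 arrays (SE 0.14, 95% interval -0.35 to 0.34, limma adjusted p = 0.996), with no direction that held under other scalings, and -0.24 over 6 (SE 0.19, 95% interval -0.67 to 0.19, limma adjusted p = 0.941).

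Tcf4 encodes E2-2, the E protein that plasmacytoid dendritic cells require. Its level was 4.62, 4.50 and 5.40 in PLZF_ON replicates 1, 2 and 3, against 4.75, 4.82 and 4.76 in WT replicates 1, 2 and 3. It lay below the background level of 5.20 on 5 arrays. On PLZF_ON replicate 3 it was above 5.20 but below 5.65, the same percentile taken within that array. Tcf4 was therefore not shown to be above background on any array, while the other 4 members were above 5.20 on all 6. Its log2 differences were -0.22 over 4 arrays (SE 0.13, limma adjusted p = 0.719) and 0.06 over 6 (SE 0.24, limma adjusted p = 0.976). Of the 7 plasmacytoid dendritic cell markers, 3 lay above the background level on all 6 arrays, namely Irf8 (5.69 to 7.96), Cox6a2 (5.84 to 6.15) and Pacsin1 (6.53 to 7.34), and 3 below it on all 6, among them Siglech and Spib, which were at most 5.08 and 4.73. The other, Ccdc88a, was at 5.49, 5.59 and 4.61 in PLZF_ON replicates 1, 2 and 3, against 4.40 to 4.46 in WT. By limma 0 of the 7 passed over 4 or 6 arrays, and their part in the Tcf4 levels was not tested.

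**Figure D4:**
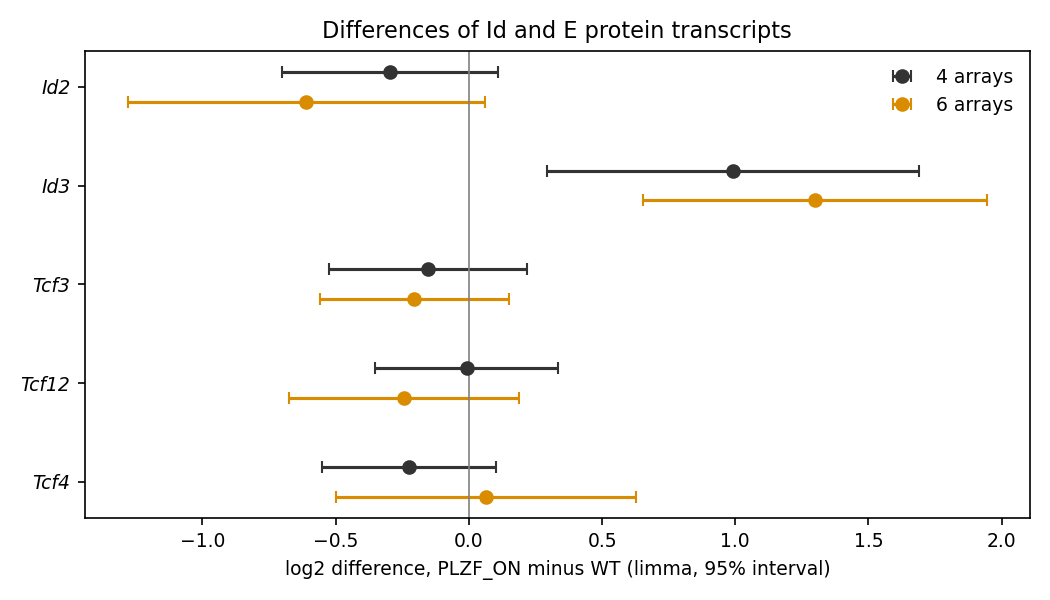
Log2 difference, PLZF_ON minus WT, of each gene over 4 arrays (dark) and 6 arrays (orange) with limma 95% intervals. The intervals of Id3 lie above 0 (0.29 to 1.69 and 0.65 to 1.94), and those of the other 4 genes include 0.

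The other genes of the pathway were taken from 5 lists. A list of 10 genes held other Id proteins, helix-loop-helix factors and the LIM-only genes Lmo1 and Lmo2. Of these, 0 passed limma in either direction over 4 or 6 arrays, and 0 had an unadjusted p under 0.05. For 7 of the 10, the level was below background on all arrays. Id1, a further Id protein, was at 4.08, 3.82 and 4.59 in PLZF_ON replicates 1, 2 and 3, against 4.05, 3.53 and 3.97 in WT replicates 1, 2 and 3, so none of its arrays reached 5.20. Id4 exceeded that level only on PLZF_ON replicate 3, at 5.57, which is below the percentile of that array. The blood cell regulators Tal1 and Lyl1 and the helix-loop-helix factor Ascl2 had log2 differences over 4 arrays of -0.23, 0.39 and -0.13. Lyl1 and Ascl2 stayed below the background level, and Tal1 exceeded it on PLZF_ON replicate 3 and narrowly on WT replicate 2. On PLZF_ON replicate 3 Tal1 was at 5.33, below the percentile of that array. The median difference of the list was 0.05, beside 0.00 over all rows.

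Inputs to Id gene transcription, measured for 10 of 12 listed genes, had a median difference of 0.26 over 4 arrays and -0.02 over 6, and 9 of 10 and then 5 of 10 were higher in PLZF_ON, beside 11592 and 12926 of all 23521 rows. By limma 0 passed over 4 or 6 arrays, and 3 were higher at an unadjusted p under 0.05 over 4 arrays, all of them Egr genes, as were 4.88% of all rows. Egr2, an immediate target of receptor signalling, was at 8.59, 8.48 and 7.87 in PLZF_ON replicates 1, 2 and 3, against 7.53, 7.60 and 7.45 in WT replicates 1, 2 and 3. The groups did not overlap, and PLZF_ON replicate 3 was the nearest to WT. The Egr2 difference was 0.97 over 4 arrays (SE 0.13, limma adjusted p = 0.075) and 0.79 over 6 (limma adjusted p = 0.436). Without PLZF_ON replicate 3 it was 1.01 over 5 arrays and passed (limma adjusted p = 0.0292). Egr1, another zinc finger factor induced by receptor signals, was at 8.488, 8.484 and 6.915 in PLZF_ON replicates 1, 2 and 3, against 7.998, 7.976 and 8.455 in WT replicates 1, 2 and 3. PLZF_ON replicate 3 thus had the least Egr1 and the most Id3 of the 6 arrays. Egr3, Tgfbr2, Smad3, Elk4, Nfatc1, Elk1 and Srf of this list were also lowest on that array. Their levels there ran from 6.07 (Elk1) to 7.98 (Nfatc1). Only Egr2 and Tgfbr1 of the list were not lowest there, and high values were lower on that array in general. Any relation between Egr1 and Id3 was not tested. Egr3, which is co-induced with Egr2, had a difference of 0.47 over 4 arrays (limma adjusted p = 0.369) and 0.16 over 6 (limma adjusted p = 0.951). Tgfbr1, a receptor chain for transforming growth factor beta, had a difference of 0.54 over 4 arrays (limma adjusted p = 0.536).

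Genes known as E protein targets in lymphocytes, measured for 17 of 19, had a median difference of 0.04 over 4 arrays and 0.18 over 6. The list mixes activated and repressed targets and includes Zbtb16, the gene of PLZF itself. Its median and counts therefore give no direction of E protein activity. By limma 0 passed over 4 or 6 arrays, with 5 higher and 1 lower at an unadjusted p under 0.05 over 4 arrays, as were 4.88% and 4.53% of all rows. Cd4, the co-receptor whose enhancer holds E boxes, was at 9.46, 8.90 and 8.91 in PLZF_ON replicates 1, 2 and 3, against 8.01, 7.80 and 7.56 in WT replicates 1, 2 and 3. Every PLZF_ON array was higher than every WT array, by 1.28 over 4 arrays (SE 0.21, limma adjusted p = 0.115) and 1.30 over 6 (SE 0.21, limma adjusted p = 0.124). Socs3, a feedback inhibitor of cytokine signalling, had a difference of -0.56 over 4 arrays (limma adjusted p = 0.287), and Cdk6, a G1 kinase that E2A represses, one of 0.65 (limma adjusted p = 0.422). Zbtb16 had a difference of 0.51 over 4 arrays (limma adjusted p = 0.369) and 0.24 over 6 (limma adjusted p = 0.941). Ptcra, the pre-T cell receptor chain and a direct E protein target, was at 5.61, 5.48 and 6.39 in PLZF_ON replicates 1, 2 and 3, against 5.64, 5.63 and 5.73 in WT replicates 1, 2 and 3. Outside PLZF_ON replicate 3 its levels lay between 5.48 and 5.73.

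Cofactors and turnover factors of Id and E proteins, all 10 measured, had a median difference of -0.10 over 4 arrays and -0.31 over 6. Over all tested rows the medians were 0.00 and 0.03. High values were lower on PLZF_ON replicate 3 in general, and the part of this in the value over 6 arrays was not tested. Of the 10 genes, 0 passed limma or reached an unadjusted p under 0.05. Their 4 smallest p-values over 4 arrays belonged to Fzr1, an activator of the anaphase-promoting complex that degrades Id2 (-0.26), Asb2, a ubiquitin ligase subunit (-0.23), and the ETO-family corepressors Cbfa2t3 (-0.28) and Cbfa2t2 (-0.29), with limma adjusted p-values from 0.69 to 0.762.

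Regulators of iNKT subsets, measured for 10 of 12, had 1 gene passing limma over 4 arrays and 0 over 6, beside 0.17% and 0.0935% of all rows. At an unadjusted p under 0.05 over 4 arrays 4 were higher and 3 lower, as were 4.88% and 4.53% of all rows. Lef1, a transcription factor of naive and NKT2 cells, rose to 10.93 and 11.13 in PLZF_ON replicates 1 and 2, against 9.29 and 9.53 in WT replicates 1 and 2, by 1.62 or 3.08-fold (SE 0.16, limma adjusted p = 0.0347). PLZF_ON replicate 3 had 9.75 and WT replicate 3 had 9.63, and over 6 arrays the Lef1 difference was 1.12 (SE 0.35, limma adjusted p = 0.577). The call on Lef1 was lost without PLZF_ON replicate 1 (difference 1.72, limma adjusted p = 0.081), PLZF_ON replicate 2 (1.52, adjusted p = 0.221) or WT replicate 1 (1.502, adjusted p = 0.0786), and when all deposited rows were tested (1.62, adjusted p = 0.288), while the size of the difference stayed near its value over 4 arrays. Tbx21, encoding T-bet of NKT1 cells, was at 7.37, 6.75 and 7.58 in PLZF_ON replicates 1, 2 and 3, against 8.76, 8.42 and 8.56 in WT replicates 1, 2 and 3. Those groups did not overlap (difference -1.53 over 4 arrays, limma adjusted p = 0.102, and -1.35 over 6, limma adjusted p = 0.142). Bhlhe40, itself a helix-loop-helix repressor, had a difference of -1.35 over 4 arrays (limma adjusted p = 0.104) and -1.23 over 6 (limma adjusted p = 0.154). Runx3, a factor of cytotoxic T cells, was at 7.69, 6.76 and 7.45 in PLZF_ON replicates 1, 2 and 3, against 8.78, 8.69 and 8.88 in WT replicates 1, 2 and 3, with no overlap (difference -1.51 over 4 arrays, limma adjusted p = 0.165, and -1.48 over 6, limma adjusted p = 0.128). Bcl6, a transcriptional repressor that follicular helper T cells need, had a difference of 0.78 over 4 arrays (limma adjusted p = 0.148) and 0.33 over 6 (limma adjusted p = 0.941). The median difference of the list was 0.27 over 4 arrays and -0.15 without PLZF_ON replicate 1.

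**Figure D5:**
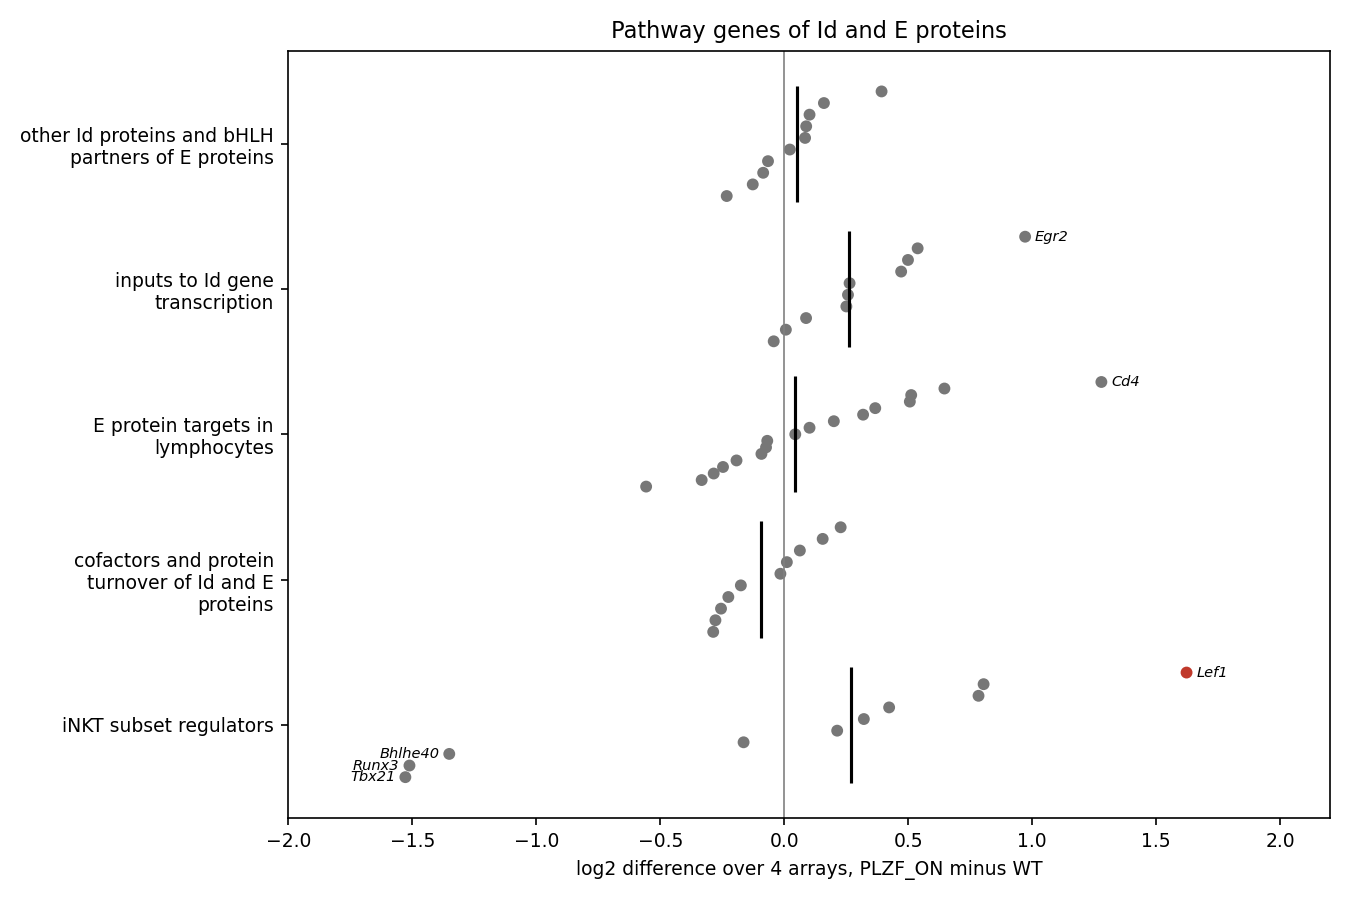
Log2 difference over 4 arrays, PLZF_ON minus WT, of every measured gene of the 5 pathway lists, with a black line at the median of each list and red for genes passing a limma adjusted p of 0.05. Lef1 (1.62) is the red point, Egr2 (0.97) and Cd4 (1.28) are the largest positive differences of their lists, and Tbx21 lies at -1.53.

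Genes with the pattern most like that of Id2 and Id3 were sought among 10050 genes of at least median level. Likeness was the root mean square difference between log2 values centred on the 6-array mean. Genes picked in this way share the group difference of Id2 or Id3 largely by construction, so their limma values add no separate evidence. For Id3 these were Igfbp4, an insulin-like growth factor binding protein (0.235), Mapk11, which encodes p38 beta (0.254), and Syt11, a synaptotagmin (0.282), where the median gene was at 0.821. Mapk11 was at 6.33, 6.72 and 6.64 in PLZF_ON replicates 1, 2 and 3, against 4.97, 5.28 and 5.16 in WT replicates 1, 2 and 3, and it passed over 6 arrays (difference 1.43, SE 0.17, limma adjusted p = 0.0459) but not over 4 (limma adjusted p = 0.0751). Of the 3 WT values of Mapk11, 2 were below the background level. Igfbp4 had differences of 1.46 over 4 arrays (limma adjusted p = 0.226) and 1.47 over 6 (limma adjusted p = 0.157). For Id2 the nearest genes were Trp53rka (0.0281), Tbc1d20 (0.0338) and Tbc1d22b (0.0492), where the median gene was at 0.437. These 3 shared with Id2 a low value on PLZF_ON replicate 3, such as 5.62 for Trp53rka there, against 6.61 to 7.09 on the other 5 arrays.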

How the data were processed

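The deposited table holds the authors' log2 expression values, 41345 rows on 6 Affymetrix whole-transcript arrays. RMA, which corrects background, brings arrays to a common distribution and summarises probes, is named in the submitters' processing notes. The sources used here do not give the RMA version, genome build or array annotation that the submitters used. RMA compresses changes of dim genes, and the number of arrays limits the precision. Values were used as deposited. Rows with exactly 1 gene symbol in the platform annotation (23521, for 22180 genes) were tested, 1814 with several symbols and 16010 not listed were left out, and a gene was taken by its brightest row. PLZF_ON was compared with WT by limma 3.58.1 in R 4.3.3 (lmFit, eBayes without a trend, genotype only, two-sided, Benjamini-Hochberg at 0.05) over 4 and over 6 arrays. Some listed genes were not analysed here.

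The members, lists, comparisons and alternatives were chosen with earlier results of these data known. Named list genes were those passing in either fit and the 4 smallest p-values over 4 arrays. Id4, Ptcra, Runx3, Tgfbr2, Smad3, Elk4, Nfatc1, Elk1, Srf and the single cell type markers were added after their values were seen. Nearest patterns were taken for members with a range of at least 1. Same-numbered arrays were not treated as pairs, and the labels give no pairing. Their deviations from group means correlated at 0.0916, 0.253 and 0.239. The fitting was tested on simulated data. Figures used matplotlib 3.10.9.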

Additional observations from a re-analysis of the deposited data

How the results depend on the processing

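None of the 5 members passed limma under any alternative run over 4 or 6 arrays. Id3 kept its direction throughout, between 0.58 and 1.40 over 4 arrays (limma adjusted p from 0.0766 to 0.706) and between 1.11 and 1.57 over 6 (0.0898 to 0.999). Id2 did so between -0.47 and -0.12 over 4 arrays and -0.81 and -0.27 over 6, and Tcf3 between -0.27 and -0.04 and between -0.29 and -0.08. Tcf12 over 4 arrays turned to 0.016 with quantile normalization and 0.006 with median centring, and ran from -0.105 to 0.089 with each array left out. Tcf4 over 6 arrays turned to -0.18 with array weights, and ran from -0.21 (without PLZF_ON replicate 3) to 0.23 with each array left out. Deviations from group means correlated above 0 for all 3 same-numbered pairs of arrays (0.0916 to 0.253) and below 0 for 5 of 6 differently numbered pairs (lowest -0.235). The deviations of a group sum to 0 on each row, so the second count largely follows from the first and adds no separate evidence. For the 4 arrays the same-numbered value was 0.132. PLZF_ON replicate 1 correlated better with WT replicate 2 (0.124) than with WT replicate 1. The labels give no pairing. With a replicate block the Id3 difference had adjusted p = 0.112 over 4 arrays and 0.189 over 6, and Tbx21 passed over 4 arrays (0.0338).

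The count of 40 rows over 4 arrays became 101 with the replicate block, 135 at an adjusted p of 0.1 and 0 when all deposited rows were tested (3042 under an unadjusted 0.05), and ran from 0 (without PLZF_ON replicate 2) to 106 (without WT replicate 2) with each array left out. The count of 22 over 6 arrays became 5 with median centring, 46 at an adjusted p of 0.1, 0 with all deposited rows (2100 under an unadjusted 0.05) and 259 with array weights. With each array left out it ran from 0 (without PLZF_ON replicate 2, WT replicate 1 or WT replicate 2) to 107 (without PLZF_ON replicate 3), with 6 without PLZF_ON replicate 1 and 1 without WT replicate 3. Among the 23 list genes followed under these settings, array weights turned Egr1 to 0.32, Tal1 to -0.14 and Ptcra to -0.0781 over 6 arrays. With each array left out, Id1 ran from -0.10 to 0.42 and Id4 from -0.0695 to 0.115 over 4 arrays, and over 6 arrays Egr1 ran from -0.44 to 0.34, Egr3 from -0.0403 to 0.52, Tal1 from -0.12 to 0.14, Id4 from -0.0427 to 0.306, Ptcra from -0.125 to 0.329 and Asb2 from -0.478 to 0.00267. With array weights Lef1, Egr2, Cd4, Tbx21, Bhlhe40 and Runx3 passed over 6 arrays (limma adjusted p from 0.00721 to 0.022). Leaving out PLZF_ON replicate 3 did the same for Lef1, Egr2, Tbx21 and Bhlhe40 (0.0158 to 0.0407). The cause of these changes was not tested. Members near the background level, such as Tcf4, cannot be ordered.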
